A study of Mus musculus with 28 samples.

Results

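Dclre1a, Upp2 and Cpeb2 are 3 genes whose mouse liver mRNA signal differed widely between an ethanol diet and an ethanol diet with ellagic acid in wild-type mice, and they were chosen by that difference (the mean of the ellagic acid arrays minus that of the ethanol arrays). Their members are all probe sets (groups of short array oligonucleotides read as 1 value) that the array annotation assigns to them, 9 of 45037 probe sets and 3 of 18193 named genes. Dclre1a and Cpeb2 each had 3 probe sets, as did Upp2, and each named its gene alone. The contrast of ellagic acid with ethanol in wild-type mice is therefore a description below, with no test, as are the other wild-type contrasts that use ethanol or ellagic acid arrays. Tests are given for the wild-type resveratrol and control arrays and for the CAR-deficient mice.

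Dclre1a encodes SNM1A, a nuclease that digests DNA past interstrand crosslinks, covalent bridges between the strands of the helix, so that they can be repaired. Upp2 encodes a uridine phosphorylase, which splits uridine into uracil and ribose 1-phosphate, and the liver is a main site of uridine turnover. Cpeb2 encodes a protein that binds cytoplasmic polyadenylation elements near the ends of mRNAs and controls how actively those mRNAs are translated.

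The livers came from female C3H/HeN mice, 5 weeks old at the start, kept 1 week on a standard diet and then given an isocaloric liquid diet, freely for 1 week and at 12 g per day for 4 weeks. The 4 diets held water in place of ethanol (control), ethanol (EtOH), ethanol with ellagic acid (EA) or ethanol with trans-resveratrol (RSV), each polyphenol at about 50 mg per kg body weight per day, so that every EA and RSV mouse also received ethanol. The control diet held more maltose and dextrin than the ethanol diets, so every contrast with control differs in carbohydrate as well as in ethanol. All livers were taken at 10:00. Wild-type (WT) mice numbered 4 per diet and mice deficient in CAR, the constitutive androstane receptor that switches on drug-metabolizing genes, 3 per diet, with 1 mouse per array and 28 arrays in all. How the CAR-deficient line was made is not given in the sources used here.

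Levels are the log2 values that the authors obtained by Distribution Free Weighting (DFW), a summary in which probes count more or less according to their variation. The method changes the spread of the values too, so a difference is not a calibrated log2 fold change, and levels of different genes or of the separately summarised genotypes are not compared. A probe set whose standard deviation (SD) over the arrays of a genotype was at most 0.01 is called compressed, as were 85.3% of probe sets in WT and 79.3% in CAR-deficient mice. Hepatocyte genes such as Alb, Apoa1 and Ttr were among the highest levels of the WT arrays, as in liver (all 9 hepatocyte markers measured lay at or above the 97.5th percentile). The probe set of Nr1i3, the gene of CAR, read 8.96 to 10.10 in WT and 8.55 to 9.49 in CAR-deficient arrays. Whether it lies in the deleted part is not given, so it does not check the genotype. In WT its level was higher with EA than with EtOH by 0.64 (limma, adjusted p = 0.045). Array EtOH replicate 1 of the CAR-deficient mice stood apart, with a median correlation of 0.983 with the other arrays of its genotype against 0.989 to 0.994 for the rest. The members' differences, counts and correlations that use it are given with and without it.

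Upp2 is shown with its 2 start regions in the RefSeq promoter table (build GRCm38.p6), because its probe sets varied with that of Dclre1a and the regions show how unlike these 2 starts are. The RefSeq gene itself begins further upstream, at chr2:58566317. Each run is the 250 bases before a start, on the plus strand and written 5′ to 3′, with capitals marking the searched motifs.
Upp2, chr2:58567084-58567333: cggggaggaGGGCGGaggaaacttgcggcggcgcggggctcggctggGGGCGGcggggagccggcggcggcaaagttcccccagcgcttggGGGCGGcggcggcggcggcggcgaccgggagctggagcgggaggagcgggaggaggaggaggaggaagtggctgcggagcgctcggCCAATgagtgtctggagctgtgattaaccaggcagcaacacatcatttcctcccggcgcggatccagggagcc
Upp2, chr2:58754934-58755183: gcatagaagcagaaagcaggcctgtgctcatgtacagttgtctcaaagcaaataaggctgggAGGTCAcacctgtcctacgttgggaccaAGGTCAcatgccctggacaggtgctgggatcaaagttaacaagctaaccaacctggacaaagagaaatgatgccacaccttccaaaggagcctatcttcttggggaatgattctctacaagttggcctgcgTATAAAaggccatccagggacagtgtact
The upstream region had a GC content of 73.2% and held 3 GC boxes (GGGCGG) and 1 CCAAT box (CCAAT). The downstream region had a GC content of 49.2% and held a TATA box (TATAAA) 29 to 24 bases before the start and 2 nuclear receptor core sites (AGGTCA), at 188 to 183 and 160 to 155 bases before it. Of all 32851 promoter windows of this length, 32.7% held GGGCGG, 33.8% CCAAT, 12.4% TATAAA and 14% AGGTCA on either strand. The region before the Dclre1a start (chr19:56548223-56548472, minus strand, GC content 54%) runs over the start of its neighbour Nhlrc2 and held none of the motifs. The other strings searched were the E-box CACGTG (6.02% of windows), the cyclic AMP response element TGACGTCA (1.55%) and its short form TGACG (17.8%), and the D-box forms TTATGTAA (0.819%) and TTACGTAA (0.113%), of which neither gene held any. A match is a description of letters and not of a bound site.

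In WT liver the Dclre1a signal was low on the control and EtOH diets and high on both polyphenol diets. The leading probe set, 1417904_at (the one of highest mean level among those of the gene), read 7.49, 8.06, 8.10 and 8.00 on the 4 control arrays and 8.09, 8.09, 7.54 and 8.32 on the EtOH arrays, which are numbered 1, 3, 4 and 5. It read 9.21, 9.55, 10.24 and 9.71 on the EA arrays and 9.93, 10.19, 9.16 and 9.25 on the RSV arrays. All 8 polyphenol arrays lay above all 8 control and EtOH arrays, while control overlapped EtOH and EA overlapped RSV. The group means were 7.91 ± 0.28 for control, 8.01 ± 0.33 for EtOH, 9.67 ± 0.43 for EA and 9.63 ± 0.51 for RSV (SD, n = 4).

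The EA mean of Dclre1a exceeded the EtOH mean by 1.66 (standard error 0.28, 95% interval 1.07 to 2.26), the 4th highest difference of the 45037 probe sets and the 3rd of 18193 genes. RSV exceeded EtOH by 1.62 (1.03 to 2.22), EtOH exceeded control by 0.10 (-0.50 to 0.70), and EA and RSV differed by 0.04 (-0.56 to 0.64). The other Dclre1a probe sets, 1442329_at and 1432097_a_at, were compressed in both genotypes. They stood near 6.93 and 6.76 on every WT array and differed between EA and EtOH by 0.0003 and 0.0001, so the diet pattern of the gene rests on 1 probe set.

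Upp2 had the same order of diets in WT. Its leading probe set 1424969_s_at read 10.47, 11.04, 11.16 and 10.95 on the control arrays and 10.97, 11.15, 10.78 and 11.43 on the EtOH arrays. It read 12.01, 11.98, 12.12 and 12.13 on the EA arrays and 11.92, 12.09, 11.79 and 11.84 on the RSV arrays. Again the polyphenol arrays lay above all others and overlapped each other, and the EA arrays spanned only 11.98 to 12.13. EA exceeded EtOH by 0.98 (standard error 0.15, 95% interval 0.66 to 1.31), RSV exceeded EtOH by 0.83 (0.50 to 1.16), and EtOH exceeded control by 0.17 (-0.15 to 0.50).

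The second Upp2 probe set, 1451548_at, was designed from the same transcript record as the leading one and is no independent measurement. It spanned 9.75 to 10.39 on control, 9.93 to 10.69 on EtOH, 11.33 to 11.54 on EA and 11.17 to 11.53 on RSV arrays, with a difference of EA from EtOH of 1.09 (0.72 to 1.45). The third, 1460059_at, was low and changed less, from 6.35 to 6.89 on EtOH arrays to 7.07 to 7.60 on EA arrays, a difference of 0.54 (0.19 to 0.90). Its highest EA value, 7.60 in replicate 4, lay apart from the other EA values of 7.07 to 7.12. On this probe set the RSV arrays (6.71 to 7.19) overlapped those of every other diet.

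Low arrays were shared by Dclre1a and Upp2. Control replicate 1 and EtOH replicate 4 were the lowest WT arrays of their diets on Dclre1a 1417904_at and on all 3 Upp2 probe sets. Within the EA and RSV diets the 2 genes were not ordered alike in every mouse: EA replicate 3 was highest for Dclre1a and replicate 4 for Upp2 1424969_s_at, while RSV replicate 2 was highest for both.

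**Figure D1:**
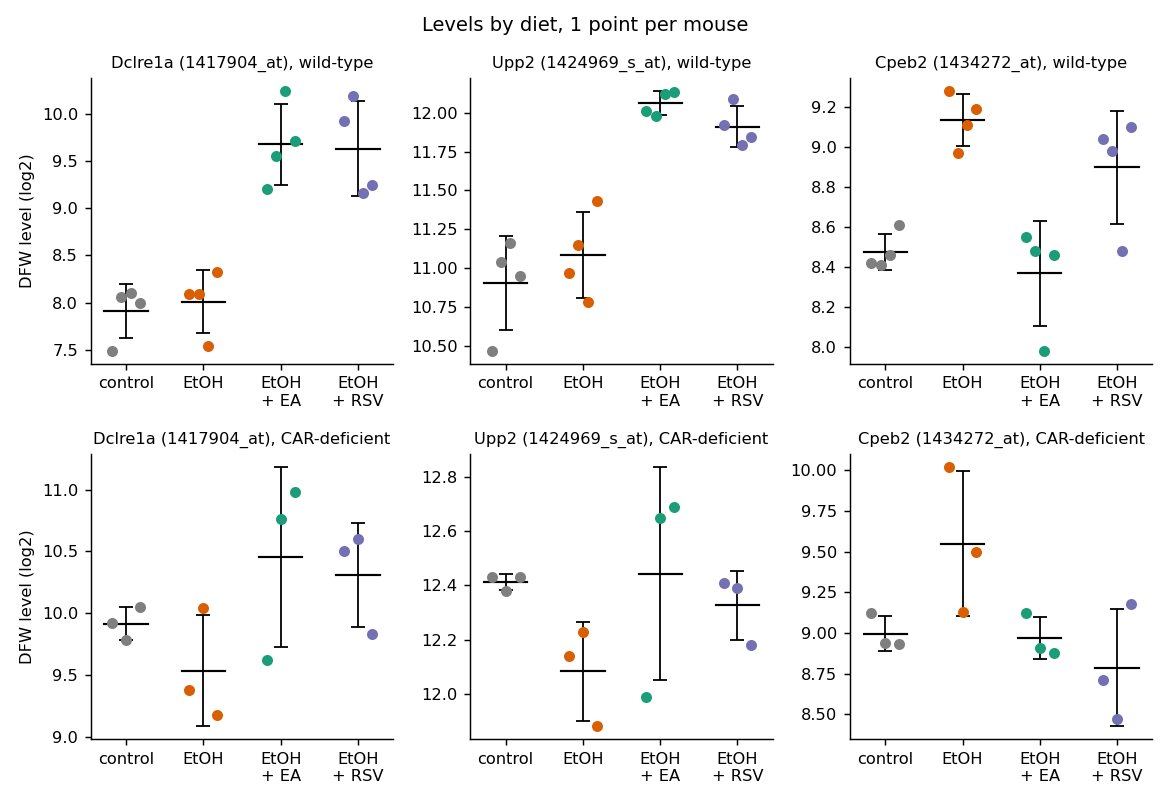
DFW level (log2, vertical axis, scaled per panel) of the leading probe sets of Dclre1a, Upp2 and Cpeb2 by diet, in wild-type (4 mice per diet) and CAR-deficient mice (3 per diet), with 1 point per array, a bar at the mean and whiskers of 1 SD. In wild-type mice the EA and RSV points of Dclre1a and Upp2 lie above all control and EtOH points, and the EtOH points of Cpeb2 lie above those of control and EA.

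Cpeb2 went the other way between EA and EtOH, and on 2 of its 3 probe sets the EtOH arrays lay wholly above the control arrays, which those of Dclre1a and Upp2 did on none. The leading probe set 1434272_at read 8.42, 8.41, 8.46 and 8.61 on the control arrays and 9.28, 8.97, 9.11 and 9.19 on the EtOH arrays. It read 8.55, 8.48, 7.98 and 8.46 on the EA arrays and 9.04, 8.98, 8.48 and 9.10 on the RSV arrays. All EtOH arrays lay above all control and EA arrays, EA overlapped control, and 3 of the 4 RSV arrays lay within the EtOH range while replicate 3 (8.48) lay with control. EtOH exceeded control by 0.66 (standard error 0.15, 95% interval 0.35 to 0.98), and the EA mean differed from the EtOH mean by -0.77 (-1.09 to -0.46) and from the control mean by -0.11 (-0.43 to 0.21). RSV differed from EtOH by -0.24 (-0.56 to 0.08) and EA from RSV by -0.53 (-0.85 to -0.22).

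The other Cpeb2 probe sets had the same order of diet means, EtOH, RSV, control, EA. On 1458518_at the values spanned 7.33 to 7.74 on EtOH, 7.11 to 7.29 on RSV, 6.93 to 7.03 on control and 6.66 to 7.10 on EA arrays, so that the control range lay within that of EA. Its EA mean differed from EtOH by -0.56 (-0.77 to -0.35), and its RSV arrays lay below all EtOH arrays and above all control and EA arrays. On 1443017_at the spread within diets was wider, control replicate 1 (7.74) lay within the EtOH range of 7.41 to 8.01, and EA (6.64 to 7.23) differed from EtOH by -0.65 (-1.08 to -0.22). EA replicate 3 was the lowest EA array of all 3 Cpeb2 probe sets.

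In the contrast that chose them, 7 of the 9 member probe sets had EA and EtOH arrays that did not overlap, 4 higher and 3 lower with EA, where 4.37% of all probe sets were higher and 5.07% lower without overlap. Nothing is read from this count. Of EtOH against control, 2 did not overlap, both of Cpeb2 and higher (6.19% of all). Of RSV against EtOH, 3 were higher (2.92%) and 1 lower (3.04%). Of EA against control, 4 were higher (10.3%), and of EA against RSV, 1 was lower (2.48%). These contrasts share arrays and are not independent of each other.

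**Figure D2:**
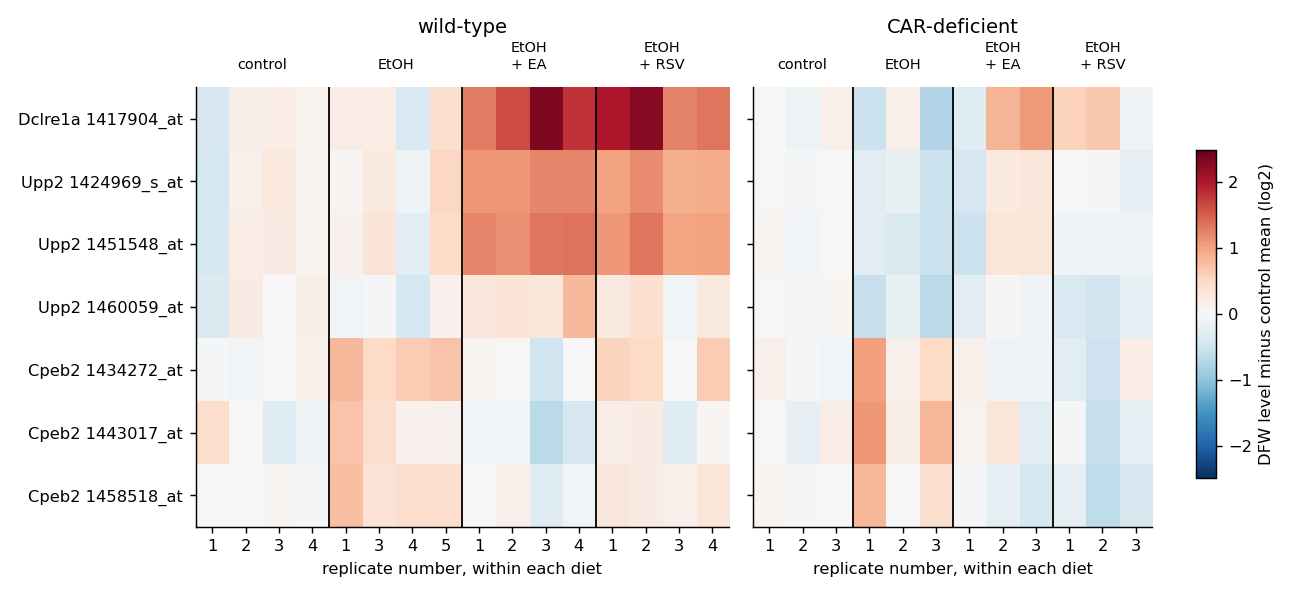
Member probe sets that were not compressed (rows) over all arrays (columns, labelled by replicate number within each diet), coloured by the DFW level minus the control mean of the same genotype (log2). In wild-type mice Dclre1a and Upp2 are red on the EA and RSV arrays and Cpeb2 is red on the EtOH arrays, while in CAR-deficient mice the colours are paler, EA replicate 1 differs from the other EA arrays for Dclre1a and Upp2, and EtOH replicate 1 is the reddest array for Cpeb2.

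RSV against control is the pair of WT diets that shares no array with the contrast that chose the genes. By limma Dclre1a and Upp2 were higher on RSV and Cpeb2 did not pass, while the rank product, a test on the ranks of differences between pairs of arrays, called 2 of the 3 Cpeb2 probe sets as well. The rank product was judged against values shuffled among the probe sets of each array, and not against mice shuffled between diets. Its estimated false positive shares therefore do not measure the spread between mice, here and below. Dclre1a 1417904_at rose by 1.72 (standard error 0.28, limma, adjusted p = 0.0017). Upp2 rose by 1.00 on 1424969_s_at (standard error 0.15, limma, adjusted p = 0.0012) and by 1.10 on 1451548_at (standard error 0.17, limma, adjusted p = 0.0013). In each case all 4 RSV arrays lay above all 4 control arrays, and the exact two-sided permutation p was 0.0286, the smallest that 4 against 4 allow. Upp2 1460059_at differed by 0.20 (adjusted p = 0.41 by limma).

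Cpeb2 1434272_at differed by 0.43 between RSV and control (limma, adjusted p = 0.059), 1458518_at by 0.24 (adjusted p = 0.1) and 1443017_at by 0.03 (adjusted p = 0.94). Over 14 alternative settings the adjusted p lay between 0.0093 and 0.14 for the first and between 0.024 and 0.2 for the second. The rank product called both higher, with an estimated false positive share of 0.0023 for 1434272_at and 0.0097 for 1458518_at. In all it called 6 member probe sets, which include Upp2 1460059_at (0.041), and all were higher, as were 3.24% of all probe sets. The RSV and control arrays of Upp2 1460059_at and of Cpeb2 1434272_at overlapped. Of the 9 member probe sets, 3 passed the threshold of 0.05, all higher, where 9.07% of all probe sets were higher and 10.7% lower. The 3 belong to 2 genes, and 2 of them share a transcript. RSV and control arrays did not overlap in 5, all higher (10.5% of all), and 1 of the 5 was the compressed Dclre1a 1432097_a_at, with a difference of 0.0004.

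Kupffer cell markers, genes of the resident liver macrophages, moved with the same contrast. Of 10 measured, 8 were lower on RSV than on control and none higher by limma, and their mean level was 8.53 to 8.67 on RSV and 8.75 to 8.88 on control arrays. Of all 18193 leading probe sets 23.7% passed. Hepatocyte markers had 1 higher and 1 lower of 9, and their mean level was 13.40 to 13.50 on RSV and 13.37 to 13.45 on control arrays. In whole liver fewer cells of a type and less RNA per cell cannot be told apart. On EtOH, where Cpeb2 stood above control, 8 of the 10 Kupffer markers were lower than on control as well (8.55 to 8.68), where 7% of all leading probe sets passed. On EA, where Cpeb2 overlapped control, 9 of the 10 were lower than on control (8.56 to 8.61), where 17.9% of all passed. Between EA and EtOH in WT, 1 marker passed among the lists of 6 cell types, each with 5 to 10 genes measured. Of all leading probe sets 3.18% passed. The marker was Fcgr2b, 1 of 10 measured for sinusoidal endothelial cells, which rose by 0.23 (limma, adjusted p = 0.048). The mean level of the 10 endothelial markers was 8.70 to 8.77 on EA and 8.62 to 8.65 on EtOH arrays. The part of these cells in the results was not tested.

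In CAR-deficient mice the differences of EA from EtOH had the same sign as in WT for all 7 member probe sets that were not compressed, and none passed the threshold. The 7 belong to 3 genes and share the same arrays, so their signs are not independent. How many of all probe sets kept their sign was not computed. Dclre1a 1417904_at read 9.38, 10.04 and 9.18 on the EtOH arrays and 9.62, 10.76 and 10.98 on the EA arrays. It read 9.92, 9.78 and 10.05 on the control and 10.50, 10.60 and 9.83 on the RSV arrays. The groups overlapped, and EA replicate 1 lay below EtOH replicate 2. EA exceeded EtOH by 0.92 (95% interval 0.04 to 1.80, limma, adjusted p = 0.57). Over 12 alternative settings the difference lay between 0.66 and 1.34 and did not pass, the highest being without EA replicate 1 (limma, adjusted p = 0.38). RSV exceeded EtOH by 0.78 (-0.11 to 1.66, limma, adjusted p = 0.91), and by 0.70 without EtOH replicate 1.

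Upp2 had its lowest mean on EtOH in CAR-deficient mice on all 3 probe sets, and no contrast passed the test. On 1424969_s_at the control arrays read 12.43, 12.38 and 12.43 and the EtOH arrays 12.14, 12.23 and 11.88. The EA arrays read 11.99, 12.65 and 12.69 and the RSV arrays 12.41, 12.39 and 12.18. All EtOH arrays lay below all control arrays, while EA replicate 1 lay within the EtOH range and the other EA arrays above every control array.

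EA differed from EtOH by 0.36 on this Upp2 probe set (-0.05 to 0.77, limma, adjusted p = 0.63), by 0.40 on 1451548_at (adjusted p = 0.64) and by 0.38 on 1460059_at (adjusted p = 0.49). Without EA replicate 1 these were 0.59, 0.68 and 0.45 (adjusted p = 0.34, 0.23 and 0.43 by limma), and without EtOH replicate 1 they were 0.39, 0.45 and 0.33. Over 12 alternative settings they lay between 0.24 and 0.59, 0.25 and 0.68, and 0.28 and 0.52. EtOH differed from control by -0.33, -0.37 and -0.47 (adjusted p = 0.52, 0.52 and 0.18), with groups that did not overlap on any of the 3. Leaving out EtOH replicate 1 gave -0.36, -0.43 and -0.43. RSV differed from control by -0.08 (-0.50 to 0.33) on 1424969_s_at, against 1.00 in WT, by -0.09 (-0.57 to 0.38) on 1451548_at and by -0.36 (-0.65 to -0.07, limma, adjusted p = 0.36) on 1460059_at. On the last of these all RSV arrays (7.07 to 7.28) lay below all control arrays (7.49 to 7.57) and their mean of 7.17 was closer to that of EtOH (7.05) than to that of control (7.53). EA differed from control by 0.03 (-0.38 to 0.45) on 1424969_s_at, against 1.16 in WT. The difference between the genotypes was not tested, since their values were summarised apart.

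Cpeb2 kept the direction of each contrast with EtOH in CAR-deficient mice. On 1434272_at the control arrays read 9.12, 8.94 and 8.93 and the EtOH arrays 10.02, 9.13 and 9.50. The EA arrays read 9.12, 8.91 and 8.88 and the RSV arrays 8.71, 8.47 and 9.18. The EtOH arrays lay above all control and EA arrays, the lowest EtOH array (9.13) just above the highest control and EA arrays (9.12 each), and RSV overlapped every diet. EtOH exceeded control by 0.56 (0.01 to 1.10, limma, adjusted p = 0.4), EA differed from EtOH by -0.58 (-1.13 to -0.04, adjusted p = 0.57) and RSV from EtOH by -0.77 (-1.31 to -0.22, adjusted p = 0.87).

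EtOH replicate 1, the array that stood apart, was the highest of all CAR-deficient arrays on the 3 Cpeb2 probe sets (10.02, 8.74 and 8.52). Without it EtOH exceeded control by 0.32, 0.50 and 0.21 in place of 0.56, 0.69 and 0.41 on 1434272_at, 1443017_at and 1458518_at. EA then differed from EtOH by -0.35, -0.47 and -0.45 in place of -0.58, -0.66 and -0.65. RSV differed from EtOH by -0.53, -0.79 and -0.63 in place of -0.77, -0.98 and -0.83. The directions were kept, and the values for EtOH against control on 1434272_at and 1458518_at and for EA against EtOH on 1434272_at moved by over 1.5 times. Without it EA exceeded EtOH by 0.84 for Dclre1a and by 0.39 for Upp2 1424969_s_at.

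By limma 0 of the 9 member probe sets passed in any of the 6 contrasts of CAR-deficient diets. Of all probe sets 0.344% passed for EtOH against control, 0.18% for EA against control and 0.06% for RSV against control, and 0% for each of the other 3. Residuals of EtOH and control arrays with equal replicate numbers correlated by 0.292 to 0.409, and whether the numbers pair mice is not given. With the number as a block the 155 calls among all probe sets for that contrast became 12. They became 47 without EtOH replicate 1 and 6 to 20 without EtOH replicate 3 or any 1 control array, and no member passed with the block or without EtOH replicate 1. At an unadjusted p under 0.05 the members numbered 6 for EA against EtOH (8.5% of all), 4 for RSV against EtOH (5.46%), 3 for EtOH against control (12.4%), 1 for RSV against control (10.3%), and 0 for EA against control (11.7%) and for EA against RSV (2.98%). The first 2 of these counts each include the nearly flat 1442329_at of Dclre1a, with a difference of 0.0008. Without EtOH replicate 1 the members numbered 1 for EA against EtOH (7.37% of all), 3 for RSV against EtOH (4.73%) and 1 for EtOH against control (11.8%).

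In CAR-deficient mice the rank product called Dclre1a 1417904_at higher for EA against EtOH (estimated false positive share 0.011), where it called 0.38% of all probe sets higher. It called the same probe set higher for EA against control (0.045), with 1.6% of all. Cpeb2 1443017_at was called higher for EtOH against control (0.046), with 0.878% of all. It was called lower for RSV against EtOH (0.015), as was 1458518_at (0.045), with 0.0467% of all. No member was called in the other 2 contrasts. Without EtOH replicate 1 the call of Dclre1a for EA against EtOH remained (0.016), with 0.511% of all called higher. The 3 calls of Cpeb2 in these contrasts were then lost. Their false positive shares were 0.24 for EtOH against control and 0.48 and 0.45 for RSV against EtOH. Upp2 1451548_at and 1460059_at were then called lower for EtOH against control (0.033 and 0.041), with 1.33% of all. Groups did not overlap in 4 members for EtOH against control (1 higher, 9.25% of all, and 3 lower, 9.76%), in 3 for EA against EtOH (1 higher, 6.91%, and 2 lower, 6.56%) and in 4 for RSV against EtOH (2 higher, 3.9%, and 2 lower, 4.02%). They did not overlap in 1 for EA against control (higher, 10.6%), 3 for RSV against control (lower, 8.48%) and 0 for EA against RSV (3.11% higher and 3.26% lower). The 1 higher for EA against EtOH and for EA against control was the nearly flat Dclre1a 1442329_at, with differences of 0.0008 and 0.0006. It was also 1 of the 2 higher for RSV against EtOH (0.0008). Without EtOH replicate 1 the counts of members in the 3 contrasts with EtOH were the same, where 18.1% of all probe sets were lower and 15.8% higher for EtOH against control, 13.4% higher and 11.9% lower for EA against EtOH, and 9.13% higher and 7.91% lower for RSV against EtOH. With 3 arrays against 3, an exact permutation test cannot give a two-sided p below 0.1.

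**Figure D3:**
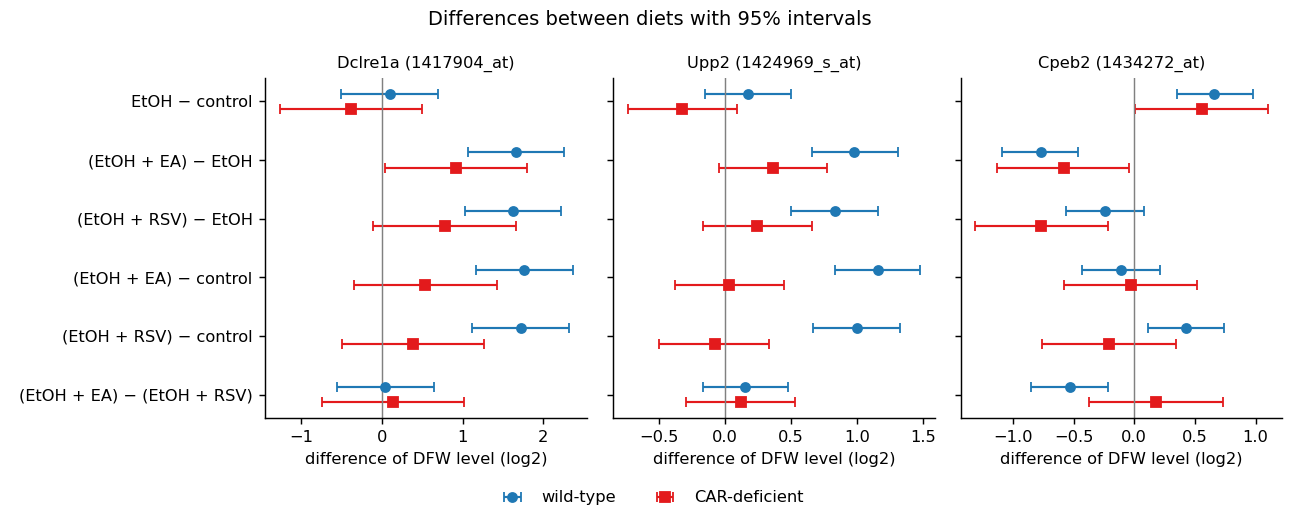
Differences between diet means of DFW level (log2, horizontal axis) with 95% intervals for the leading probe sets in wild-type (circles) and CAR-deficient mice (squares). For Dclre1a the EA minus EtOH difference is 1.66 in wild-type and 0.92 in CAR-deficient mice, and for Upp2 the RSV minus control difference is 1.00 and -0.08.

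The genes whose profile over the 16 WT arrays was most like that of a member were sought among 4547 probe sets with an SD above 0.1. The correlations describe arrays that share 4 diets, and they carry no test. The members were chosen by a WT difference and these genes by likeness to them over the same arrays. Their WT differences between diets therefore follow from the choice and are a description. Dclre1a 1417904_at was most like Ngef, a guanine nucleotide exchange factor (r = 0.981), Upp2 1451548_at (0.963), Shld1, a shieldin subunit that acts at DNA breaks (0.957), Itch, a ubiquitin ligase (0.954), and Per3, a period protein of the circadian clock (0.948). Over the 12 CAR-deficient arrays these correlations were 0.827, 0.786, 0.809, 0.282 and 0.925, and without EtOH replicate 1 they were 0.794, 0.791, 0.862, 0.476 and 0.912.

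Upp2 1424969_s_at shared Ngef (0.959), Dclre1a (0.958), Shld1 (0.954) and Per3 (0.951) with that list, and its other gene was Tef, a clock-controlled transcription factor (0.944). Over the CAR-deficient arrays the 5 correlations were 0.632, 0.881, 0.715, 0.764 and 0.594, and 0.611, 0.882, 0.728, 0.757 and 0.576 without that array. The WT differences of these genes follow from how they were chosen. Per3 was higher with EA than with EtOH by 1.05 in WT and by 0.94 in CAR-deficient mice, Ngef by 0.66 and 0.35, and Tef by 0.66 and 0.29. Shld1 differed by 0.39 and 0.02, and Itch by 0.30 and 0.18. The CAR-deficient differences without EtOH replicate 1 were 0.86 for Per3, 0.25 for Ngef, 0.32 for Tef, 0.03 for Shld1 and 0.30 for Itch.

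Cpeb2 1434272_at was most like Fkbp4, an HSP90 co-chaperone (r = 0.908), Pdia3, a protein disulfide isomerase (0.868), Zbtb16, a zinc finger transcription factor (0.86), Atp2a2, a calcium pump (0.851), and Dnajb11, a co-chaperone of the endoplasmic reticulum (0.851). Over the CAR-deficient arrays the correlations were -0.385, 0.797, 0.847, 0.785 and 0.643, so that of Fkbp4 changed sign. All 5 were lower in size without EtOH replicate 1, at 0.031, 0.517, 0.647, 0.486 and 0.171. In WT all 5 stood higher on EtOH than on control, by 0.28 to 0.39, and EA differed from EtOH by -0.49 for Atp2a2, -0.48 for Dnajb11, -0.33 for Pdia3, -0.31 for Fkbp4 and -0.25 for Zbtb16. The 5 were chosen by likeness to Cpeb2 over these arrays, so these WT differences follow from that choice.

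**Figure D4:**
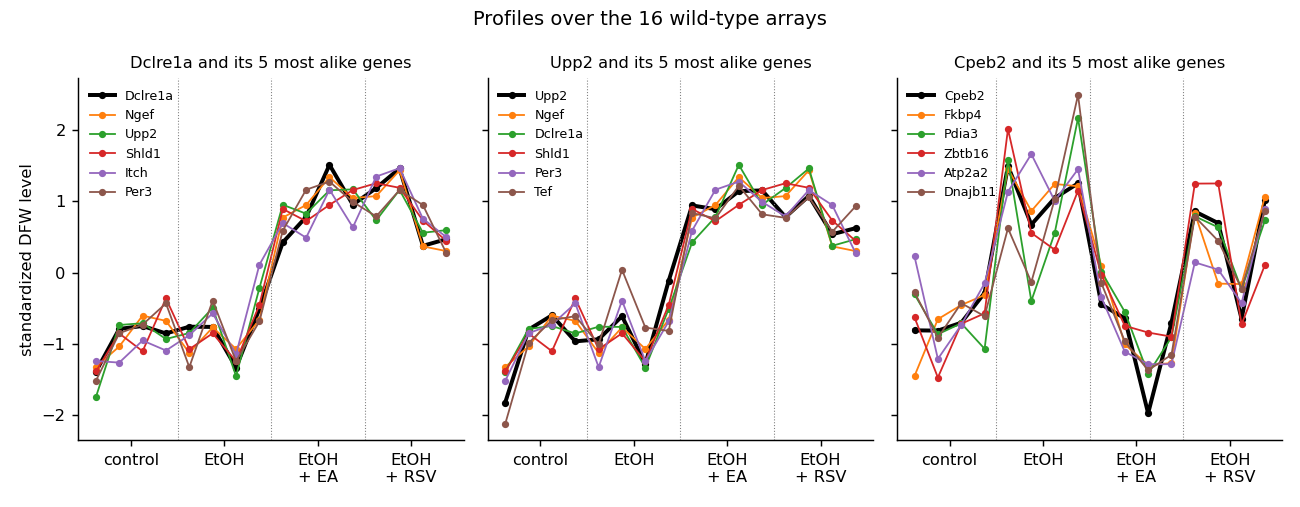
Standardized DFW level (level minus the mean of the 16 arrays, over their SD) of each leading probe set in black and of the 5 genes most like it, over the 16 wild-type arrays in the order of diet and replicate, with lines only to guide the eye. Dclre1a, Upp2 and the genes like them step up between the EtOH and EA arrays, while Cpeb2 and the genes like it are high on EtOH and low on EA. The shared shape follows from how the genes were chosen.

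Of the close relatives of the members, Cpeb1 alone passed for EA against EtOH in WT, in the direction opposite to Cpeb2, and none passed in CAR-deficient mice. In WT the 3 probe sets of Dclre1b, a related nuclease, the 1 of Upp1, the other uridine phosphorylase, and the 4 of Cpeb3 were compressed and did not pass for EA against EtOH. Cpeb4 differed by -0.18 and -0.26 on 1420618_at and 1420617_at (limma, adjusted p = 0.69 and 0.5), and its remaining probe set was compressed. Like Cpeb2, both had a higher mean on EtOH than on control, by 0.46 and 0.32 in WT (limma, adjusted p = 0.13 and 0.26) and by 0.54 and 0.50 in CAR-deficient mice (limma, adjusted p = 0.33 and 0.3), where these were 0.79 and 0.70 without EtOH replicate 1 (adjusted p = 0.077 and 0.098). RSV differed from EtOH by -0.29 and -0.35 in WT and by -0.07 and -0.12 in CAR-deficient mice, without passing the test. Dclre1c had no probe set that named it alone. Cpeb1, compressed in WT, was higher by 0.02 (limma, adjusted p = 0.012), opposite in sign to Cpeb2. In CAR-deficient mice Dclre1b 1448520_at was not compressed and differed by -0.37 (limma, adjusted p = 0.42), opposite in sign to Dclre1a, and by -0.29 without EtOH replicate 1.

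The neighbouring genes were compared in the same way. Dclre1a (chr19:56529161-56548284, GRCm38.p6) overlaps at its start the gene Nhlrc2 (chr19:56548250-56603503). Nhlrc2 was higher with EA than with EtOH by 0.29 in WT (limma, adjusted p = 0.12) and by 0.05 in CAR-deficient mice (adjusted p = 0.95), and it rose by 0.50 for RSV against control in WT (adjusted p = 0.0031). Acvr1 (chr2:58446438-58566828) overlaps the start of Upp2 (chr2:58566317-58795846). Plekhs1 on the other side of Dclre1a, Acvr1, and C1qtnf7 beside Cpeb2 (chr5:43225349-43289724) were compressed and did not pass for EA against EtOH. Ccdc148 and Gm46911, the neighbours on the remaining sides, had no probe set that named them alone.

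For EA against EtOH in WT, limma called 0 of 28, 2 of 27 and 3 of 33 measured genes in the 3 pathway lists of the members. Of all leading probe sets 3.18% passed. Of 28 measured genes in a list of 31 for interstrand crosslink and Fanconi anemia repair, which also holds the neighbour Nhlrc2, 0 passed by limma for EA against EtOH in WT, where 1.56% of 18193 leading probe sets were higher and 1.62% lower. At an unadjusted p under 0.05 the list had 5 genes of 28 (18.4% of all leading probe sets), and the rank product called 2 (8.06%). For EtOH against control 2 were higher and 1 lower (7% of all). Fancl, a ubiquitin ligase subunit, fell by 0.37 (limma, adjusted p = 0.0042), and Rad51c and Ercc1 were compressed, with differences of 0.0003.

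For uridine and pyrimidine metabolism 27 genes of 30 were measured. With EA, against EtOH in WT, 1 was higher (1.56% of all leading probe sets) and 1 lower (1.62%). Dpyd, the first enzyme of uracil breakdown, rose by 0.26 (limma, adjusted p = 0.045), and Nme1, a nucleoside diphosphate kinase, fell by 0.22 (adjusted p = 0.029). For this WT contrast 8 of the 27 had an unadjusted p under 0.05 by limma (18.4% of all leading probe sets). The rank product called 7 (8.06%). On EtOH against control Dpys, the next enzyme of that breakdown, rose by 0.31 (limma, adjusted p = 0.0014) and Tk2, a mitochondrial thymidine kinase, fell by 0.18 (adjusted p = 0.0098). Uckl1 was compressed, with a difference of -0.0003. Of all leading probe sets 7% passed for EtOH against control. In CAR-deficient mice Nt5e, which frees nucleosides from nucleotides outside the cell, rose by 1.16 on EtOH (limma, adjusted p = 0.043), the 1 call of this list there (0.434% of all). It did not pass without EtOH replicate 1 (1.14, limma, adjusted p = 0.1), with the replicate block (adjusted p = 0.063), or without EtOH replicate 3 or any 1 control array (0.99 to 1.25, adjusted p = 0.1 to 0.17).

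For cytoplasmic polyadenylation and deadenylation 33 genes of 35 were measured. With EA, against EtOH in WT, 1 was higher (1.56% of all leading probe sets) and 2 were lower (1.62%). Besides Cpeb1, these were Eif4e, the cap-binding initiation factor, which fell by 0.20 (limma, adjusted p = 0.048), and the compressed Cnot3, with a difference of -0.0003. For this WT contrast 12 of the 33 had an unadjusted p under 0.05 by limma (18.4% of all leading probe sets). The rank product called 5 (8.06%). On EtOH against control Pabpc1, a poly(A)-binding protein, fell by 0.23 (limma, adjusted p = 0.035) and Cnot6l, a deadenylase, by 0.24 (adjusted p = 0.019). Of all leading probe sets 7% passed in that contrast. For RSV against EtOH in WT and for EA against EtOH in CAR-deficient mice, limma called 0 genes of the 3 lists, where 0.555% and 0% of all leading probe sets passed. At an unadjusted p under 0.05 the lists had 2 of 28, 9 of 27 and 6 of 33 genes for RSV against EtOH in WT (17.3% of all leading probe sets). They had 2, 2 and 8 for EA against EtOH in CAR-deficient mice (8.76%), where the rank product called 0. These were 1, 2 and 4 without EtOH replicate 1, and the rank product then called 1.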

How the data were processed

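Expression in the livers of 28 mice was measured on Affymetrix GeneChip Mouse Genome arrays, 1 mouse per array. The authors summarised the probes by DFW in R, apart for the 2 genotypes, and deposited log2 values, which were used without further normalization. Of 45101 probe sets, 64 controls were set aside, and 26 blank ones were left out in CAR-deficient mice. Genes were named from the platform annotation, with symbols updated by gene ID: 34945 probe sets name 1 gene, 932 several and 9160 none.

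For each genotype 1 linear model with the 4 diets was fitted by limma 3.58.1 (lmFit, eBayes) in R 4.3.3. P-values were adjusted by Benjamini-Hochberg across all probe sets, and the threshold was 0.05. Intervals are 95%. Replicates are separate mice, and their number limits the precision. Tables were made with Python 3.11.15, and the code was tested on simulated data.

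The members and gene lists were chosen with earlier results of these data known. Named are all member probe sets, the 5 genes most like each leading probe set, list genes past the threshold, close relatives and neighbours. Promoter sequences come from RefSeq (GRCm38.p6), whose table was matched for Dclre1a and Upp2. Cpeb2 was not matched.

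Alternatives were quantile normalization, only the 2 diets compared, a replicate block, probe sets above the median level, no moderation, the rank product with 50 permutations and leaving out each array. The permutations shuffled the values within each array among probe sets. Probe sets with an SD above 0.01 alone, and the rank product, counts and correlations without CAR-deficient EtOH replicate 1, were added after seeing the data.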

Additional observations from a re-analysis of the deposited data

Results flagged for a closer look

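Single arrays lay far from the rest of their diet in 4 groups of WT values, by a gap to the nearest array over the range of the group above Dixon's limit for 4 values. These were Dclre1a 1417904_at in control replicate 1 (lowest, 0.838), Dclre1a 1432097_a_at in RSV replicate 1 (highest, 0.835, on a compressed probe set), Upp2 1460059_at in EA replicate 4 (highest, 0.904) and Cpeb2 1434272_at in EA replicate 3 (lowest, 0.834). Chance alone marks about 1 in 20 groups, and WT had 4 diets for each of 9 member probe sets. No CAR-deficient group of 3 is listed here, although EA replicate 1 of Upp2 1451548_at read 11.46 there and the other EA arrays 12.31 each.

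In 4 comparisons every array of the first diet lay on 1 side of the second diet's mean in WT and on the opposite side in CAR-deficient mice, and these differences were not tested. The means alone had opposite signs in 14 of 42 comparisons (7 probe sets and 6 contrasts). These comparisons share arrays and genes, and the shares over all probe sets were not computed, so nothing is read from either count. For RSV against control, Upp2 1451548_at differed by 1.10 in WT and -0.09 in CAR-deficient mice, and Cpeb2 1458518_at by 0.24 and -0.42. For EA against RSV, Cpeb2 1434272_at differed by -0.53 in WT and 0.18 in CAR-deficient mice, and Cpeb2 1443017_at by -0.34 and 0.32.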

How the results depend on the processing

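The WT difference of EA from EtOH, which chose the genes, is a description under any setting. For Upp2 1424969_s_at it was 1.07 with a replicate block in place of 0.98 and 0.88 to 1.10 with 1 array left out, the extremes coming without EtOH replicates 4 and 5. Residuals of equal replicate numbers correlated above 0.1 in every pair for EA against control in WT (0.156 to 0.568) and for EtOH against control in CAR-deficient mice (0.292 to 0.409). They did so in 8 of the other 17 WT and 2 of the other 15 CAR-deficient pairs, and in every pair of no other contrast. Whether the numbers pair mice is not given. In CAR-deficient mice the block ended the call of Nt5e for EtOH against control and changed no member's call.

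For RSV against control in WT the 3 members called became 7 with quantile normalization, 5 among probe sets with an SD above 0.01 (chosen after seeing the data), 6 by the rank product and 5 by the unadjusted exact permutation test. The 5 of the permutation test include the compressed Dclre1a 1432097_a_at. The calls among all probe sets moved as well, from 19.7% to 55.5% with quantile normalization (17263 higher and 7736 lower, against 4084 and 4801), 52.9% with an SD above 0.01 (1099 and 2407 of 6633) and 8.02% by the rank product. Dclre1a 1417904_at and both Upp2 probe sets named in the report passed in all 14 alternatives refitted by limma, with adjusted p of 0.00015 to 0.017, 0.00012 to 0.016 and 0.00014 to 0.015. In CAR-deficient mice the rank product called 1 member for EtOH against control, 1 for EA against EtOH, 2 for RSV against EtOH and 1 for EA against control in place of 0, with 1.89%, 0.575%, 0.164% and 2.97% of all probe sets.

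The 5 pathway genes called for EA against EtOH in WT became 3 with quantile normalization, 0 with only the 2 diets, 2 with the replicate block, 2 without moderation, 9 among probe sets with an SD above 0.01, 14 by the rank product and 1 to 5 with 1 array left out (1 without EtOH replicate 1, EA replicate 2 or EA replicate 3). Of all probe sets 2.37% passed in this contrast, against 1.48%, 0.246%, 1.5%, 2.01%, 23.5% and 5.6% under the first 6 of these settings and 0.746% to 2.56% with 1 array left out. The cause was not tested. With 3 or 4 arrays per diet and DFW rescaling, sizes are known only within the intervals given. Of the other values recomputed, 137 of counts and leading differences stayed within the limits set for them. For counts the limit was 1.5 times. For the WT leading differences of EA from EtOH it was the smaller SD of the 2 diets. Of single probe sets, 594 kept their direction and side of the threshold, and 8 newly passed.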
